A study of Mus musculus with 2 samples.

Results

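Genes of cholesterol synthesis and sterol control were examined in the lens of wild-type C57/BL6 mice at postnatal day 7 (P7), when the lens is still growing, and at postnatal day 60 (P60), in young adulthood. A single pool of lenses gave the total RNA of each age, hybridised to 1 Affymetrix array, so no value has a replicate, no test between the ages was possible, and differences are given by size. The labels name neither the number nor the sex of the pooled animals. The list of 28 genes was set by function. It held 18 enzymes from acetyl-CoA to cholesterol, 5 genes of sterol sensing and SREBP control, and 5 genes of sterol transport, storage and release. The 5 control genes include Srebf1 and Srebf2, which encode the SREBP transcription factors themselves. A gene was included when a probe set (a group of short probes for 1 transcript) carried its symbol alone. That held for 26 of the 28, out of 18194 genes named this way in the series. Acat2, which forms acetoacetyl-CoA, and Soat1, which esterifies cholesterol for storage, had no such probe set in the annotation used and were not analysed here. For each gene the brightest of its probe sets was used, by mean log2 signal of both arrays.

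Cholesterol is made in the endoplasmic reticulum through mevalonate, isoprenoid units, squalene and lanosterol, and most of its enzymes are encoded by targets of SREBP-2. SREBP-1, encoded by Srebf1, acts more on genes of fatty acid synthesis. SREBPs are held in the endoplasmic reticulum by the escort protein SCAP and its sterol-dependent partners INSIG-1 and INSIG-2 and are cleaved in the Golgi when sterols are low. Fibre cell membranes of the lens are unusually rich in cholesterol, and inherited defects of several of these enzymes, lanosterol synthase among them, are known causes of cataract.

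Of the 5 control genes 2 (40%) passed 2-fold, both higher at P60, against 11.5% of all 13029 measured genes. Of 17 measured enzymes 14 stayed within 2-fold of their P7 level, as did 10305 of the 13029. Srebf1 was 5.55-fold, Insig1 3.15-fold and Dhcr7, the enzyme of the final reduction to cholesterol, 2.39-fold higher at P60. Idi1, the isomerase that forms the active isoprene unit, was 2.35-fold lower and Msmo1, a methyl oxidase acting on lanosterol products, 2.34-fold lower. The other 21 genes stayed within 2-fold. All 26 read above the floor of 103.9 (the median over both arrays of every value) at both ages, so none of their ratios is a bound. Of 13029 genes measured, that is, above the floor on at least 1 array, 11.5% passed 2-fold upward and 9.44% passed it downward from P7 to P60. Among the 26 sterol genes the counts were 3 higher (11.5%) and 2 lower (7.69%), so as a set they reached 2-fold about as often as other genes. Their median log2 ratio (P60 over P7) was 0.16, against 0.02 for all measured genes. As a guide to error, log2 ratios of probe sets for the same gene differed with an SD of 0.58, pooled over 4239 genes. That SD holds no difference between animals or between separate pools, labellings or arrays. Of the 26 genes 16 (61.5%) lay within it, as did 57.1% of all measured genes.

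The stretch of promoter before the gene start is shown for the 5 genes past 2-fold and for Hmgcs1. Of the 23 listed genes searched in the promoter table, only Hmgcs1 had a stretch with the sterol response element core searched for. Each run covers the 250 bases before a RefSeq gene start (build GRCm38.p6), read 5′ to 3′ on the gene's strand. Capitals mark matches, on either strand, to 4 short motifs: the sterol response element core TCACNCCAC, at which SREBPs bind, the E-box CACGTG, the CCAAT box (CCAAT), at which NF-Y binds, and the Sp1 box GGGCGG. Srebf1 and Dhcr7 each have 3 listed starts, and the one whose stretch matched most of the motifs is shown.
Srebf1 (chr11:60210472-60210721, minus strand): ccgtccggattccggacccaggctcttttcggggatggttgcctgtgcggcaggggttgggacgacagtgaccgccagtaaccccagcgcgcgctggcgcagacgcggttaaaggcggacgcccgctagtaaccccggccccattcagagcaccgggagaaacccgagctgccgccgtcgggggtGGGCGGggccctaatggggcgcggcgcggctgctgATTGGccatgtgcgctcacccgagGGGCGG
Insig1 (chr5:28071162-28071411, plus strand): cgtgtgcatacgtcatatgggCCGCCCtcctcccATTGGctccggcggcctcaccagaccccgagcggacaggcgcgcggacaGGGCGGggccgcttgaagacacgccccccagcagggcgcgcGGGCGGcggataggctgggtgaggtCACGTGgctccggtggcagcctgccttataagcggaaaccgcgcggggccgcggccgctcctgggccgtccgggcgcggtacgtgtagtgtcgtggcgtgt
Dhcr7 (chr7:143829964-143830213, plus strand): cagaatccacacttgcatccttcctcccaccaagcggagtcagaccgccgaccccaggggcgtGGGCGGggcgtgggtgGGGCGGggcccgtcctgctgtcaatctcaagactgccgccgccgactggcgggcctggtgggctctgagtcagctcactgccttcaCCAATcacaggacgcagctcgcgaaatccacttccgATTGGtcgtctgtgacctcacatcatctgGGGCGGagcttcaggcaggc
Idi1 (chr13:8885356-8885605, plus strand): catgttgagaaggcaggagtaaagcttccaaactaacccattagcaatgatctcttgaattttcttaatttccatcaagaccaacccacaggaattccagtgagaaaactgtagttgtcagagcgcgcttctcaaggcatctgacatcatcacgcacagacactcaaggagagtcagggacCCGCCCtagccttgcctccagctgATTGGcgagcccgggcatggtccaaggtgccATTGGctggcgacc
Msmo1 (chr8:64733579-64733828, minus strand): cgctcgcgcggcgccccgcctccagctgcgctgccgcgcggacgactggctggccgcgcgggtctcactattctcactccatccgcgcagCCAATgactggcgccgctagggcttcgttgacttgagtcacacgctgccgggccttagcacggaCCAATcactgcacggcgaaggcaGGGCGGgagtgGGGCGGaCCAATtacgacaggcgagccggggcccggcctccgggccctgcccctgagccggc
Hmgcs1 (chr13:119690101-119690350, plus strand): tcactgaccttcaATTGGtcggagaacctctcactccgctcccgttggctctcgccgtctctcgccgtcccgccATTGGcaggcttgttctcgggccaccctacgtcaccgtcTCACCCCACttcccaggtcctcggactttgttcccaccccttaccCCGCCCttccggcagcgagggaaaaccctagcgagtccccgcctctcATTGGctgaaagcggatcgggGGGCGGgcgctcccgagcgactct

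Each of the stretches shown held at least 1 CCAAT box and at least 1 Sp1 box, for Srebf1 and Dhcr7 by the choice of start, since none of their other starts held both. Insig1 also held an E-box, 101 to 96 bases before its start, and Hmgcs1 the sterol response element core, 137 to 129 bases before its start. In the stretches shown, Msmo1, lower at P60, and Dhcr7, higher at P60, had the same 2 kinds of match, with 3 and 2 CCAAT boxes. Another start of Dhcr7 held an E-box. Of the promoter table, 1 chromosome was left out of the search and of all counts given here. The rest held 23 of the 28 genes, with 31 starts, and Fdps, Fdft1, Sqle, Stard4 and Npc1 were not searched. A CCAAT box was found before at least 1 start of 21 of these 23 genes (91.3%), all but Acat2 and Scap. It was found for 40.1% of the 10510 measured genes searched and for 37.5% of all 27025 genes searched. An Sp1 box was found for 20 of the 23 (87.0%), all but Lipa, Pmvk and Soat1, against 61.7% of measured and 35.4% of all genes. A CCAAT and an Sp1 box lay in the same stretch for 17 of the 23 (73.9%) and for 22.8% of measured genes. The E-box was found for Dhcr7, Hsd17b7, Insig1, Sc5d and Scap, 5 of 23 genes (21.7%), against 9.71% of measured genes, and the sterol response element core for 1 of 23 (4.35%) against 1.28%. Counted by start, 71.0% of the 31 stretches and 34.8% of those of measured genes held a CCAAT box. The median G and C content was 62.0% in the 31 stretches, 59.6% in those of measured genes and 52.4% in all. A match describes the letters and does not show binding. The lack of a match does not show that no variant of a motif is present.

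**Figure D1:**
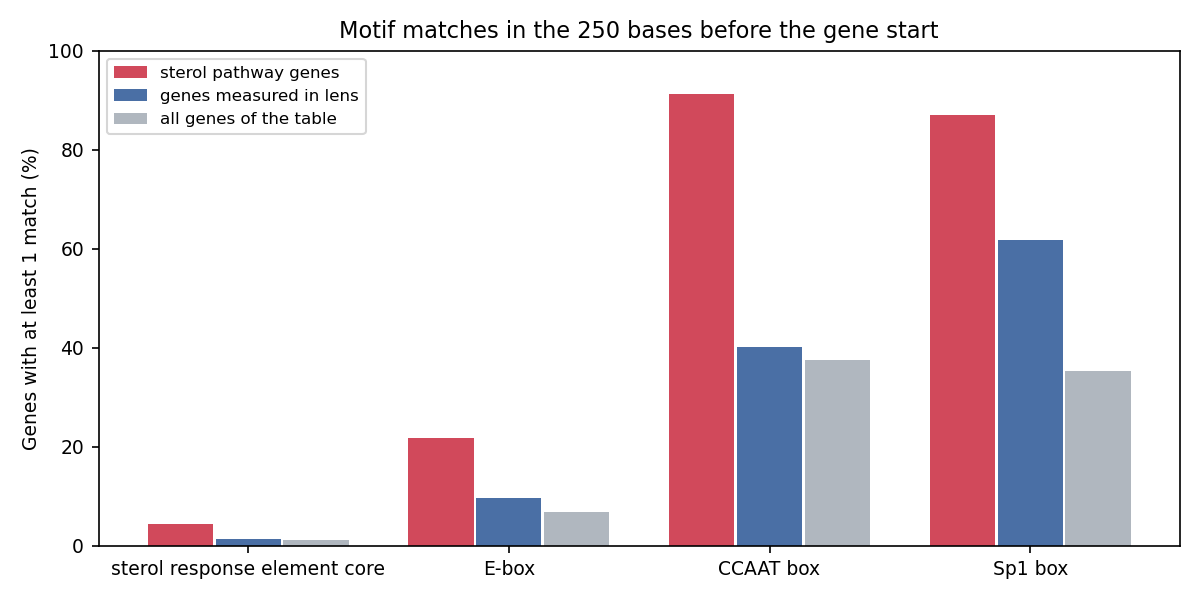
Share of genes (%, y axis) with at least 1 match to each motif in the 250 bases before a gene start. Bars are for 23 sterol pathway genes, 10510 genes measured in lens and all 27025 genes searched in the promoter table. The CCAAT box shows the widest gap, 91.3% against 40.1% and 37.5%.

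The group of sterol sensing and SREBP control, which includes the SREBP genes, held the 2 highest ratios of the list. Srebf1, which encodes SREBP-1a and SREBP-1c, read 1075 at P7 and 5969 at P60, a log2 ratio of 2.47. Of the 13029 measured genes, 136 (1.04%) had a higher ratio. Its single probe set does not tell the isoforms apart. Srebf2, which encodes SREBP-2, read 544 at P7 and 502 at P60 (log2 ratio -0.11), and its other probe set stood at 0.01. The log2 ratio of Srebf1 was thus 2.59 above that of Srebf2 on the chosen probe sets and 2.46 above it on the other, both larger than the SD between probe sets of a gene.

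Insig1, which encodes a retention protein of SCAP and is itself a known SREBP target, read 2017 at P7 and 6356 at P60 on 1 probe set (log2 ratio 1.66, exceeded by 3.75% of measured genes). Its relative Insig2 read 1003 at P7 and 1757 at P60 (log2 ratio 0.81), with 3 probe sets from 0.41 to 0.96, all above 0. Insig2 and Npc1 were the genes closest to the 2-fold limit from within on the higher side. The ratio of Insig1 was above that of Insig2 on each of its 3 probe sets, by 0.70 to 1.25 on the log2 scale. Scap, the escort protein, read 1194 at P7 and 1519 at P60 (log2 ratio 0.35), which is within the SD between probe sets. The median of these 5 control genes was 0.81.

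**Figure D2:**
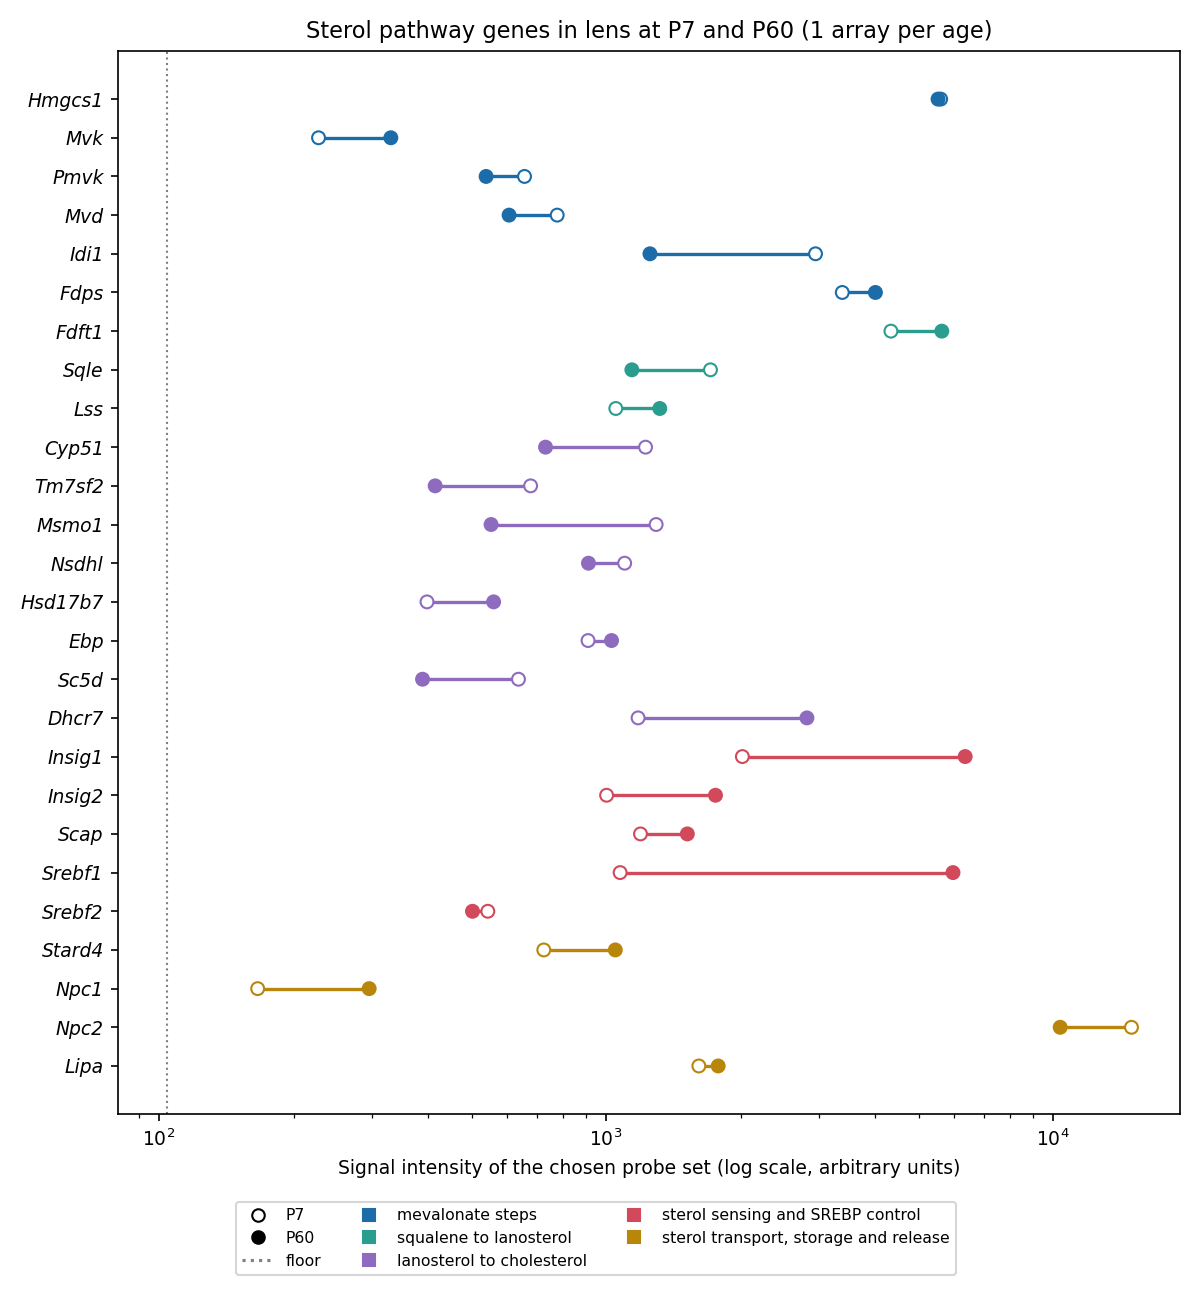
Signal intensity (log axis, arbitrary units) of the chosen probe set of each of 26 genes at P7 (open) and P60 (filled), coloured by role, with the floor as a dotted line. Levels can be compared within a gene only. The longest lines belong to Srebf1 (1075 to 5969) and Insig1 (2017 to 6356).

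Of the 6 measured genes of the mevalonate steps, Idi1 passed 2-fold on the chosen probe set, and 3 others had probe sets on both sides of 0. Hmgcs1, which forms HMG-CoA, read 5602 at P7 and 5527 at P60 (log2 ratio -0.02), and its 4 measured probe sets ranged from -0.25 to 0.48. The mevalonate kinase gene Mvk read 227 and 330 on the chosen probe set (0.54), but its other probe set stood at -1.56, so no direction can be given for it. Pmvk, the next kinase, read 657 and 539 (-0.29), and the decarboxylase gene Mvd 777 and 607 (-0.36), with its other probe set at 0.28. Idi1 read 2940.5 at P7 and 1253 at P60 (-1.23), and 5.99% of measured genes had a lower ratio. Its other probe set stood at -0.34, on the same side but within 2-fold. Fdps, which makes farnesyl diphosphate, read 3375 and 4003 (0.25). The median of these 6 genes was -0.15.

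From squalene to lanosterol no gene reached 2-fold. Fdft1, the squalene synthase, read 4336 at P7 and 5635 at P60 (0.38) on its brightest probe set, whereas its other 2 measured probe sets stood at -0.28 and -0.22. Sqle, the squalene epoxidase and a known control point of the pathway, read 1712 and 1142 (-0.58), at the edge of the SD between probe sets. Lss, the lanosterol synthase, read 1051 and 1318 (0.33), with its other measured probe set at -0.13. Fdft1 and Lss therefore had probe sets on both sides of 0.

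Between lanosterol and cholesterol the steps differed most from one another. The demethylase gene Cyp51 read 1225 at P7 and 732 at P60 (-0.74), with 3 probe sets from -0.74 to -0.31, and was the gene closest to the 2-fold limit from within on the lower side. Tm7sf2, a sterol reductase that follows it, read 678 and 415 (-0.71). Msmo1 read 1294 and 553 (-1.23) on its only measured probe set. Its partner in the removal of methyl groups, Nsdhl, read 1100.3 and 913 (-0.27), and the ketone reductase of the same step, Hsd17b7, read 397 and 560.2 (0.50), with 3 probe sets from 0.50 to 1.10. The 3 genes of this one demethylation thus ran from -1.23 to 0.50.

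The sterol isomerase gene Ebp read 911 at P7 and 1028 at P60 (0.17). Sc5d, the desaturase acting just before Dhcr7, read 637 and 388 (-0.71), and its other measured probe set stood at -0.65. Dhcr7 read 1179 and 2813 (1.25) on 1 probe set, a ratio exceeded by 7.38% of measured genes. The log2 ratio of Dhcr7 exceeded that of Sc5d by 1.97, or by 1.90 on the other probe set of Sc5d, and that of Msmo1 by 2.48. The median of these 8 genes was -0.49, and of all 17 measured enzymes -0.27, with 10 of the 17 below 0. Over the 8 alternative settings the enzyme median ran from -0.34 to -0.26 and that of the control genes from 0.73 to 1.31. With the dimmest probe sets only 10 of the enzymes and 4 of the control genes were measured. The median from squalene to lanosterol changed sign, from -0.58, on 1 gene, to 0.33. With 3 genes measured it was also below 0 in 2 settings. It was -0.22 with the median over probe sets and -0.28 without probe sets ending in _x_at or _s_at.

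**Figure D3:**
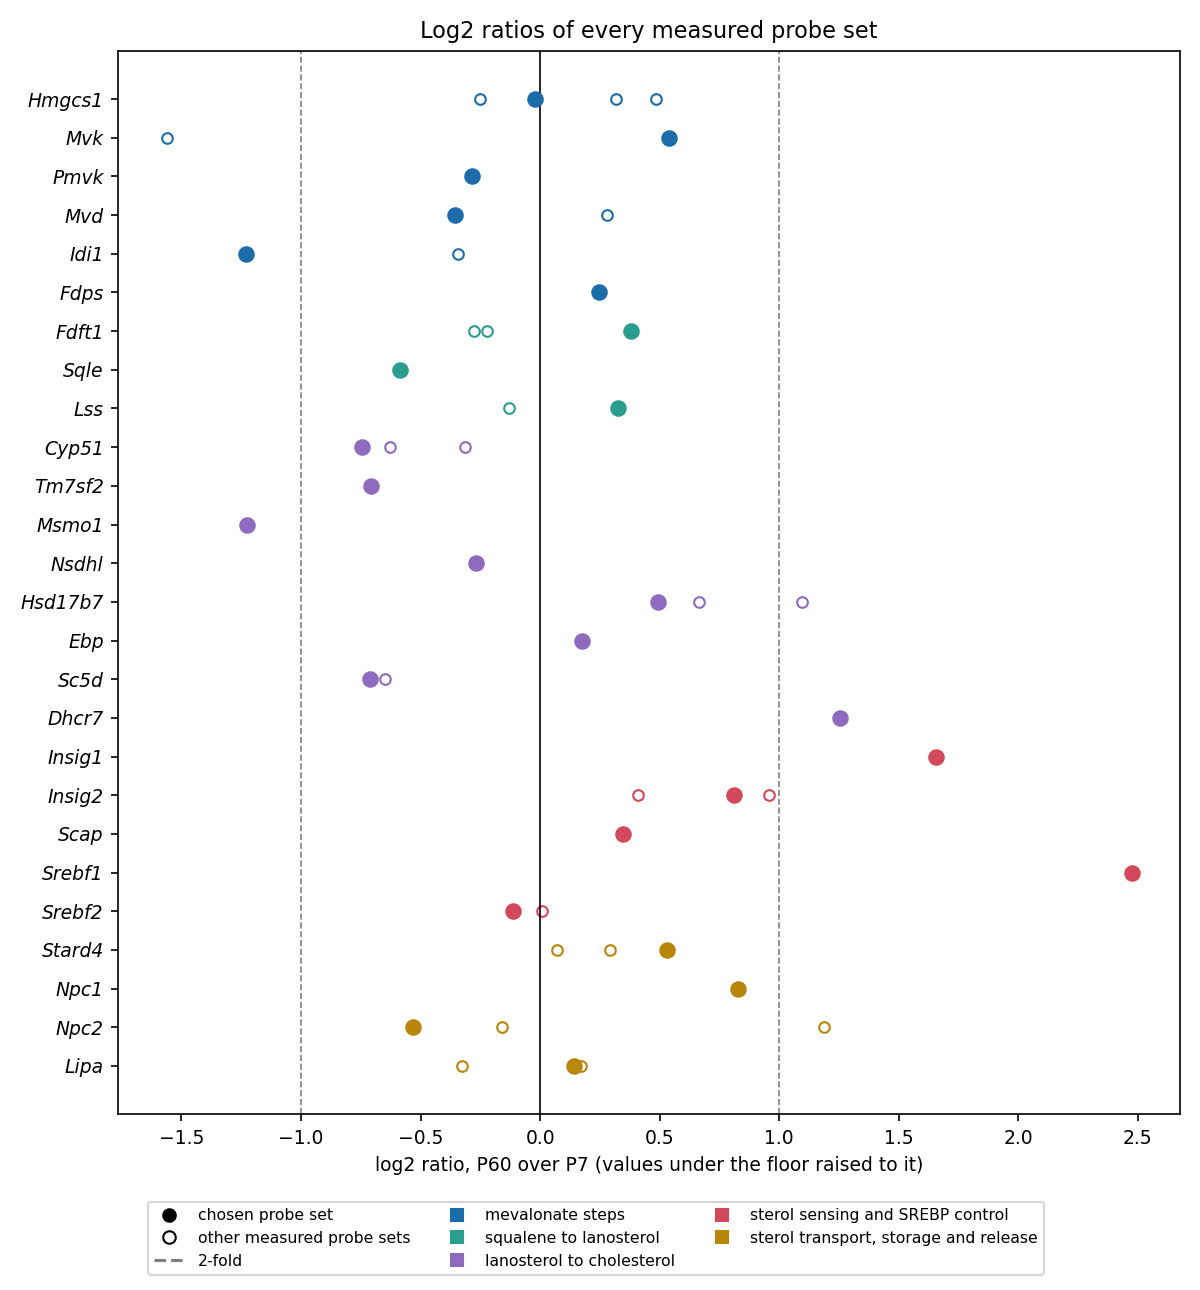
Log2 ratio (P60 over P7) of each measured probe set of the 26 genes, with the chosen one filled and the 2-fold limits dashed. Srebf1, Insig1 and Dhcr7 lie beyond the upper limit on 1 probe set each. So do Hsd17b7 (1.10) and Npc2 (1.19), on a probe set that was not the chosen one. Idi1 and Msmo1 lie beyond the lower limit on the chosen probe set, with the other of Idi1 at -0.34. The probe sets of Mvk lie at 0.54 and -1.56.

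Genes of sterol transport and release stayed within 2-fold. Npc1, the membrane protein that exports cholesterol from lysosomes, read 166 at P7 and 295 at P60 (0.83) on 1 probe set, near the floor. Npc2, the soluble protein that hands cholesterol to it, read 14971 and 10368 (-0.53). Its other 2 measured probe sets stood at -0.16 and 1.19, the latter from a value under the floor at P7. Stard4, a cytosolic sterol carrier, read 725 and 1048 (0.53), with 3 probe sets from 0.07 to 0.53. Lipa, the lysosomal acid lipase that frees cholesterol from its esters, read 1612 and 1781 (0.14), with 3 probe sets from -0.33 to 0.17. Npc1 and Npc2 therefore differed in sign on the chosen probe sets. Of the 14 sterol genes with 2 or more measured probe sets, 8 (57.1%) had them on both sides of 0, as did 46.0% of 5624 such genes on the array. For the 12 genes with 1 measured probe set, Srebf1, Insig1, Dhcr7 and Msmo1 among them, no such check was possible.

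**Figure D4:**
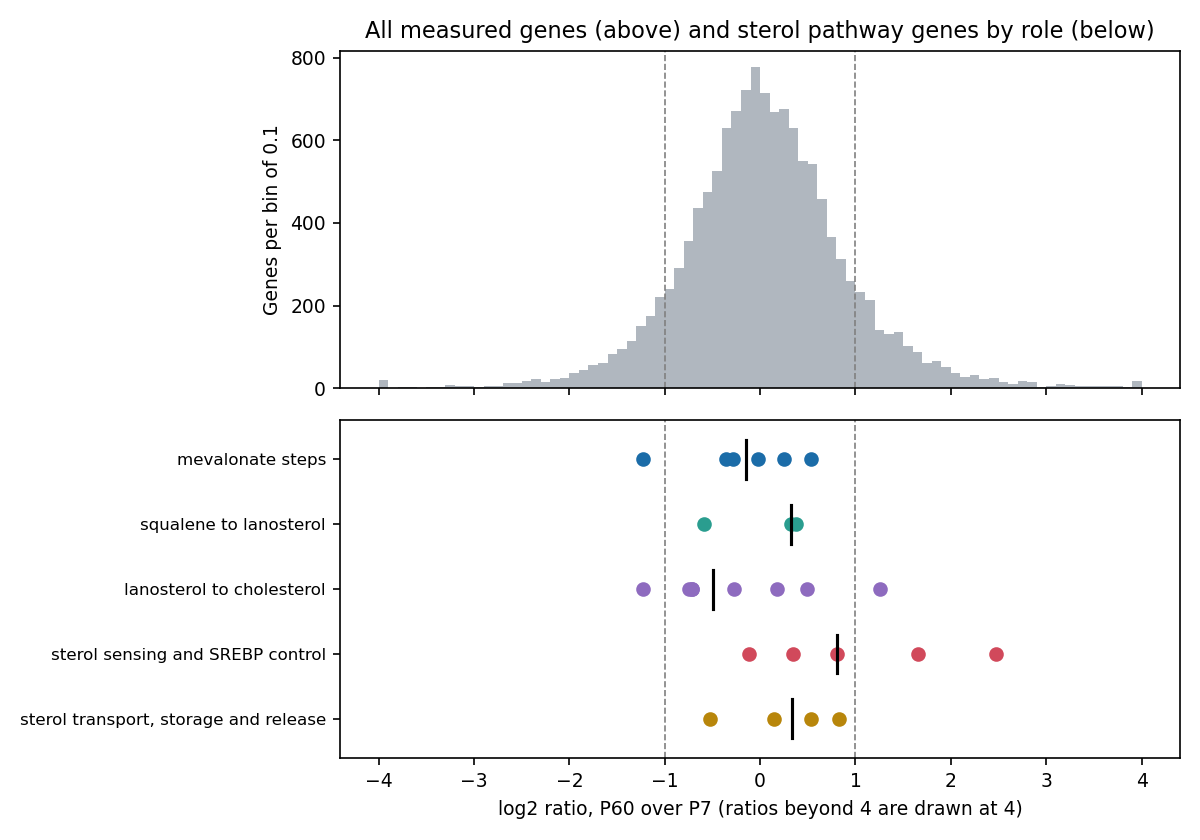
Histogram of log2 ratios (P60 over P7) of 13029 measured genes (above, bins of 0.1, ratios beyond 4 drawn at 4) and the ratios of 26 sterol pathway genes by role (below, black bars for medians, dashed lines for 2-fold). The control genes have a median of 0.81 and the steps from lanosterol to cholesterol one of -0.49.

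Neighbouring pathways were described from 6 lists of lipid genes. Their counts are to be set beside the shares of all measured genes, 11.5% higher and 9.44% lower. Fatty acid synthesis and desaturation, the main field of SREBP-1, had 4 of 12 measured genes (33.3%) at least 2-fold higher, none 2-fold lower, and a median of 0.59. With the dimmest probe set of each gene 1 of 7 was higher and the median was 0.25. Scd1, which makes monounsaturated fatty acids, read 55.7 at P7, below the floor, and 1579 at P60, at least 15.2-fold higher. The desaturase genes Fads1 (2009 and 8423, 4.19-fold) and Fads2 (480 and 978, 2.04-fold) and the elongase gene Elovl1 (766 and 2419, 3.16-fold) were also higher and are named because they passed 2-fold. The other probe set of Fads1 stood at 0.56 and the lowest of Fads2 at 0.11. Fasn, the fatty acid synthase, had a ratio of 0.74, and Elovl6 the lowest ratio of the list, -0.38. For cytosolic acetyl-CoA and NADPH supply all 7 measured genes had ratios above 0 (median 0.39), with Acss2 2.33-fold and Acly, which makes cytosolic acetyl-CoA from citrate, 2.23-fold higher, and Idh1 the lowest at 0.22. Acss2 and Acly had probe sets on both sides of 0, from -1.59 to 1.22 and from -0.25 to 1.33. So had Idh1 (-0.63 to 0.22), Acat1 (-0.34 to 0.34) and Me1 (-0.09 to 0.32). With the median over measured probe sets 2 of the 7 genes were below 0 and none was 2-fold higher. With the dimmest probe sets the list's median was -0.11.

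None of 8 measured genes of SREBP cleavage and degradation in the endoplasmic reticulum reached 2-fold (median 0.09), and they ran from Pgrmc1 at -0.66 to the ubiquitin ligase gene Rnf145 at 0.71. Of 11 genes of the isoprenoid branches 1 (9.09%, against 9.44% of all measured genes) was 2-fold lower and none higher (median -0.23). It was the transfer RNA modifying enzyme gene Trit1 (2.03-fold lower), and Rabggtb had the highest ratio at 0.41. Of 9 genes of oxysterol sensing and efflux 3 (33.3%) were 2-fold higher and none lower (median 0.29). The retinoid X receptor genes Rxrb and Rxra, partners of the oxysterol receptors, were 2.64-fold and 2.47-fold higher, and Ch25h, which makes an oxysterol, at least 2.05-fold. The oxysterol receptor gene Nr1h3 had the lowest ratio at -0.53. Of 16 intracellular sterol carriers 3 (18.8%) were 2-fold higher and 2 (12.5%) lower (median 0.16), against 11.5% and 9.44% of all measured genes. The lipid transfer gene Osbpl5 was 4.86-fold higher, Stard3, a late endosomal sterol carrier, 2.57-fold and Osbpl2 2.07-fold. Its relative Osbpl11 was 3.37-fold lower, from 11708 at P7 to 3471 at P60, and the caveolin gene Cav1 at least 3.30-fold lower.

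**Figure D5:**
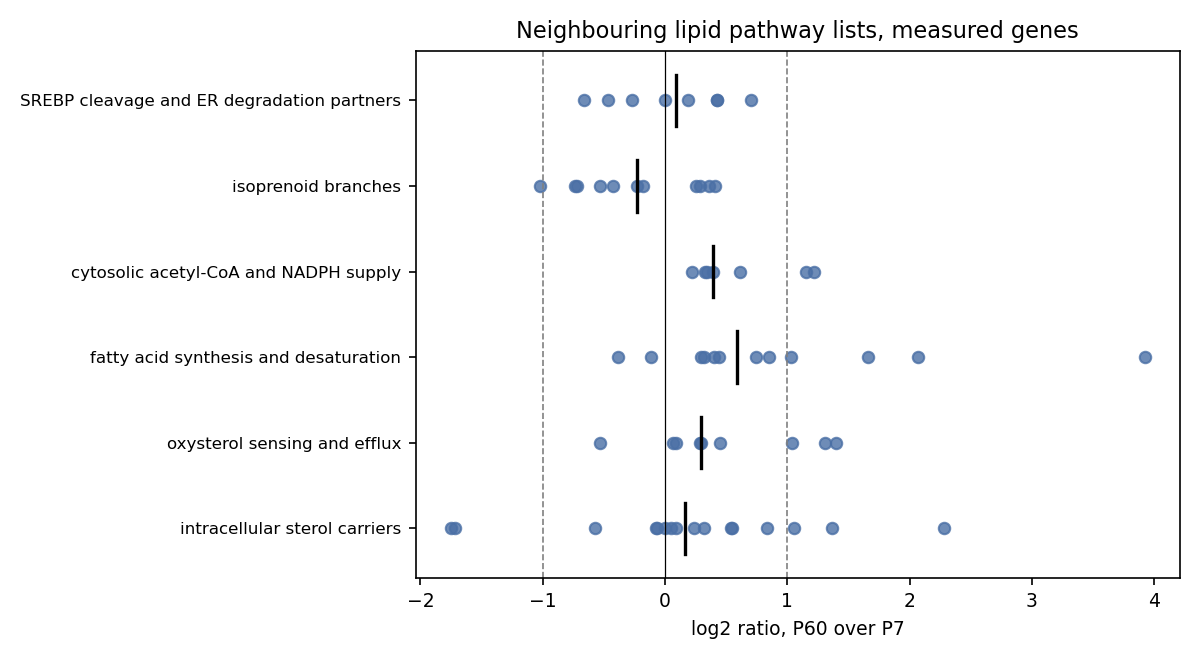
Log2 ratio (P60 over P7) of each measured gene in 6 lists of lipid genes, with list medians as black bars and 2-fold limits as dashed lines. Fatty acid genes extend furthest to the right, to 3.93 for Scd1, which is a lower bound, and the isoprenoid branches have a median of -0.23.

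Markers of lens and of other cell types were read in the same way. All 12 named lens markers were above the floor at both ages, and their summed intensity was 462079 at P7 and 478343 at P60. They ran from 288 to 86292 at P7, so the sum says little about the dim ones. Cdh1 was 2.73-fold higher at P60 (2869 and 7843) and Foxe3 2.61-fold lower (288 and 110). The other lens markers stayed within 2-fold. Vascular endothelial markers above the floor numbered 7 of 9 at P7 and 2 at P60 (summed intensity 4038 and 926). Macrophage and leukocyte markers summed to 1362 and 1374 (6 and 4 of 10 above the floor, Csf1r brightest at 420.3 and 429). Of this Cd74 gave 140 and 409, and the other 9 summed to 1222 and 965, with 6 dimmer and 3 brighter at P60. Of 5 adipocyte markers only Retn was above the floor (375 and 107), and Adipoq read 63.3 and 7.04. Myelin markers summed to 815 and 869 with 2 of 5 above the floor, led by Cnp (484 and 597). Retinal markers summed to 3119 and 2244 (6 and 7 of 8 above the floor) and went both ways, with Pdc at 1147 and 258 and Gnat1 at 12.8 and 789. Pigment cell markers summed to 2445 and 3540 (7 and 5 of 7 above the floor), but Oca2 gave 290.2 and 2502 of this, and the other 6, all dimmer at P60, summed to 2155 and 1038. Corneal markers summed to 535 and 19136 (2 and 4 of 6 above the floor), of which Aldh3a1 gave 62.6 and 18639 and the other 5 together 472 and 497. Erythroid (2 and 0 of 4 above the floor) and muscle markers (4 and 2 of 7) summed to 453 and 60.5 and to 723 and 749. No named marker had an intensity of 0. The part of these cells in the sterol gene values was not tested, and fewer cells of a type cannot be told apart from less RNA per cell. The 5′ to 3′ signal ratio, which reflects how intact RNA and cDNA were, was lower at P60 for beta-actin (0.785 at P7 and 0.606), Gapdh (1.39 and 1.29) and the dap (0.0995 and 0.0262) and lys (1.502 and 0.833) spike-ins, and its part in ratios below 0 was not tested.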

How the data were processed

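Total RNA of pooled lenses was DNase-treated, column-purified, amplified and biotin-labelled, per the labels' protocols. The authors deposited a linear signal intensity for every probe set of both arrays, made with MAS5 per the submitters' processing notes. No software version, detection call or genome build is given in the sources used here. After trimming 2% of probe sets at either end both arrays had a mean of 500.0, the equal trimmed means that MAS5 scaling gives. The median intensity was 112.9 (P7) and 93.9 (P60), and 52.2% and 47.8% of 45101 probe sets lay above the floor.

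Symbols came from a platform annotation, updated by gene number for 34754 of the 34958 probe sets with 1 symbol. Probe sets with several symbols (932) or none (9211) named no gene. Log2 ratios were taken after lower values had been set to the floor (Python 3.11.15, pandas 2.3.3, numpy 2.4.6), so folds against values below it are written "at least". A gene counted as higher or lower from 2-fold on. With 1 array per age there was no test, and the number of arrays limits the precision. The calculation was tested on data with planted changes and less noise than the SD between probe sets. That checks the code and not the calls near 2-fold. The sterol genes, the neighbouring lists, the markers and the motifs were chosen with earlier results of these data known. All sterol genes are named, and of each neighbouring list its highest and lowest gene, with genes past 2-fold and Fasn added after their values were seen. Promoter sequences are from RefSeq.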

Additional observations from a re-analysis of the deposited data

How the results depend on the processing

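The alternatives were floors of 200 and 50, a pseudocount of 16 in place of the floor, quantile normalization, scaling on the probe sets that exceeded the floor at both ages, the dimmest probe set of each gene, the median over measured probe sets, and leaving out probe sets ending in _x_at or _s_at. Srebf1 (2.45 to 2.47), Insig1 (1.63 to 1.66) and Dhcr7 (1.18 to 1.25) were at least 2-fold higher in the 5 settings that could change them. The other 3 concern the choice among probe sets, of which each of these genes has 1. Idi1 stood at -0.34 with the dimmest probe sets, and 1 sterol gene was then 2-fold lower, Mvk in place of Idi1 and Msmo1 (17 of the 26 genes were measured on such a probe set). With the median over probe sets it was also 1, Msmo1. The median of the sterol genes was 0.0098 with the dimmest probe sets and 0.029 with the median over probe sets. Over all genes, 879 were 2-fold higher with the dimmest probe sets, where 9066 genes were measured, and 2032 were lower with a floor of 50, where 15628 were. Of 199 sterol gene values under the alternatives 193 moved by less than 0.58, the SD between probe sets, and 6 by more (Fdft1, Idi1, Mvd and Mvk). Many of the 199 could not move, so this count is no measure of stability. The choice among probe sets changes nothing for a gene with 1, and the other floors changed no chosen value but that of Npc1. No paired analysis was possible because each age has 1 array, and no array could be left out.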

Other observations

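Cholesterol shares lens membranes with sphingolipids and phospholipids, and genes of their synthesis were described from a pair of lists chosen after the sterol gene values were seen. Of 13 measured genes of sphingolipid synthesis 1 (7.69%, against 11.5% of all measured genes) passed 2-fold upward at P60 and none downward (median log2 ratio 0.22). It was the ceramide synthase gene Cers6, which read 295 at P7 and 1118 at P60 (3.78-fold), and Elovl4, which extends very long fatty acids, had the lowest ratio at -0.66. Of 15 genes of phospholipid synthesis 3 (20.0%) were 2-fold higher and none lower (median 0.34). Chpt1, which completes phosphatidylcholine, read 2538 and 7423 (2.93-fold higher), with its 4 probe sets from 1.55 to 2.50. Cds2, which makes CDP-diacylglycerol, was 2.81-fold higher, but its 6 measured probe sets ran from -0.83 to 1.63, and Cept1 was 2.37-fold higher on 1 probe set. Cds1 had the lowest ratio of the list, -0.40, an upper bound, as it read 80.6 at P60, under the floor.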
